A study of Mus musculus with 8 samples.

Results

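Fetal liver haematopoietic stem cells were measured in 2 separately numbered samples of each genotype, and the sample numbered 2 is compared here with the sample numbered 1. The comparison takes in all 8 arrays of the series, 4 from samples numbered 2 and 4 from samples numbered 1, as their titles number them. The cells were sorted from livers of mouse embryos on a C57BL/6 background as Sca-1+, Lin-, AA4.1+ and strongly c-Kit+ cells, and 15 embryos were combined in each sample. One genotype was wild type and the other was Crebbp+/-, with 1 mutant copy of the gene for the coactivator CBP. The age is given as 14.5 days post coitum in one label and as 14 in another. From each sample, 12 ng of total RNA was amplified with the NuGEN Ovation method, labelled as cDNA and put on 2 Affymetrix mouse arrays.

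What the sample number stands for is not given in the labels, which name neither a litter, a sort, a day nor a batch. The 2 arrays of a sample are called replicates without a statement of what was repeated, so they were averaged, and each genotype then holds 1 sample of each number. All p-values therefore measure the spread between these preparations, taken from the difference between the genotypes in their shift. That spread is moderated by a prior, a spread pooled over probe sets of like signal. In the main fit the prior has 5.49 of the 6.49 degrees of freedom behind a p-value, and the probe set's own difference has 1. Signals are log2 values, and a difference of 1 is a doubling. Differences are sample 2 minus sample 1, first within each genotype (the shift) and then averaged over both, so that a positive value is higher in sample 2. Array values are listed with array 1 before array 2.

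In the fetal liver, stem cells multiply beside hepatocytes, erythroblasts, macrophages, endothelium and stroma, and are taken from this mixture by antibody staining and flow sorting. Immediate early genes are switched on by signals and by handling within minutes, before any new protein is made, and many encode transcription factors of the Fos, Jun, Egr and Klf families. RNA that breaks, or amplification from the poly(A) tail that stops early, leaves less signal for the 5' part of a transcript than for its 3' end. Affymetrix arrays carry control probe sets for the 5', middle and 3' parts of a few long-lived transcripts for this reason.

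The proximal promoters of 3 immediate early genes that were higher in sample 2 are shown because 13 of 26 measured genes of this group were called higher. They are the 250 bases before the start, read 5' to 3' on the gene's strand, from RefSeq on GRCm38.p6. The genes are the 3 with the largest difference among those with a single listed promoter. Capitals mark a match to a CRE half-site or a CArG box. The CRE is the binding sequence of CREB, the factor for which CBP is named, and the CArG box that of serum response factor.
Klf2, chr8:72318812-72319061, plus strand: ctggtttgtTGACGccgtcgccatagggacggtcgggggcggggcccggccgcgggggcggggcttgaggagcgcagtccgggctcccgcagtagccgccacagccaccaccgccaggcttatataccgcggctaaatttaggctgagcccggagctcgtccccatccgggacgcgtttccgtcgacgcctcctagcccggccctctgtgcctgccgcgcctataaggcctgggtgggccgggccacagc
Atf3, chr1:191183334-191183583, minus strand: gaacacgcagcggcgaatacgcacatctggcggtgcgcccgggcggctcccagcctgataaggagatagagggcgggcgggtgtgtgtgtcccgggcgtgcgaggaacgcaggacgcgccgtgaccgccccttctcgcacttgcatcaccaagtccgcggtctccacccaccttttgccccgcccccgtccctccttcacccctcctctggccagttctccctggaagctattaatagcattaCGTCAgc
Zfp36, chr7:28379229-28379478, minus strand: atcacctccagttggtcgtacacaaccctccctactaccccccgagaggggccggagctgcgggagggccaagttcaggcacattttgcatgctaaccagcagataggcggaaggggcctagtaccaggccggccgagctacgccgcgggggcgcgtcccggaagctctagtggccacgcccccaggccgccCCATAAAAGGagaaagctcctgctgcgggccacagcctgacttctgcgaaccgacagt
The half-site (TGACG, or its complement CGTCA) begins 241 bases before the start in Klf2 and 7 bases before it in Atf3, and the CArG box begins 58 bases before it in Zfp36.

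The 5' signals of both transcript controls were lower in sample 2, in both genotypes, while their 3' signals were not. Gapdh encodes a glycolytic enzyme and actin the main cytoskeletal filament. The Gapdh 5' signal was 11.90 and 11.83 for sample 1 of the wild type, 10.52 and 10.66 for its sample 2, 12.28 and 12.22 in Crebbp+/- sample 1, and 11.33 and 11.34 in Crebbp+/- sample 2. All 4 arrays of sample 2 lay below all 4 of sample 1. The shift was -1.27 in wild type and -0.92 in Crebbp+/- for the 5' part, -0.62 and -0.45 for the middle, and 0.10 and 0.08 for the 3' part. The 5' minus 3' value went from -1.22 to -2.59 for wild type, and for Crebbp+/- from -0.89 to -1.88, a mean change of -1.18. Measured against the middle instead of the 3' part, the mean change of the 5' signal was -0.56.

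For beta-actin the 5' shift was -0.73 in wild type and -0.18 in Crebbp+/-, and the 3' shift was 0.32 and 0.48. Its 5' minus 3' value went from -2.13 to -3.19 for wild type, and for Crebbp+/- from -1.90 to -2.55, a mean change of -0.85. The actin middle probe set shifted by 0.07 and 0.55, so its position relative to the 3' part differed in sign between the genotypes (-0.25 and 0.07). These values have no test, since each genotype holds 1 sample of each number. The 5' probe set of the transferrin receptor lay between 2.38 and 2.43 in all 4 samples, at the array's background, and tells nothing about its 5' end. Its middle minus 3' value shifted by 1.44 in wild type and 0.42 in Crebbp+/-, against -0.71 and -0.53 for Gapdh. The middle probe set of the transferrin receptor was dim, at 3.31 to 4.15 over the 4 samples. The 3' probe set for 18S ribosomal RNA shifted by 1.73 in wild type and 0.47 in Crebbp+/-, and its middle probe set by 0.51 and 0.20.

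**Figure D1:**
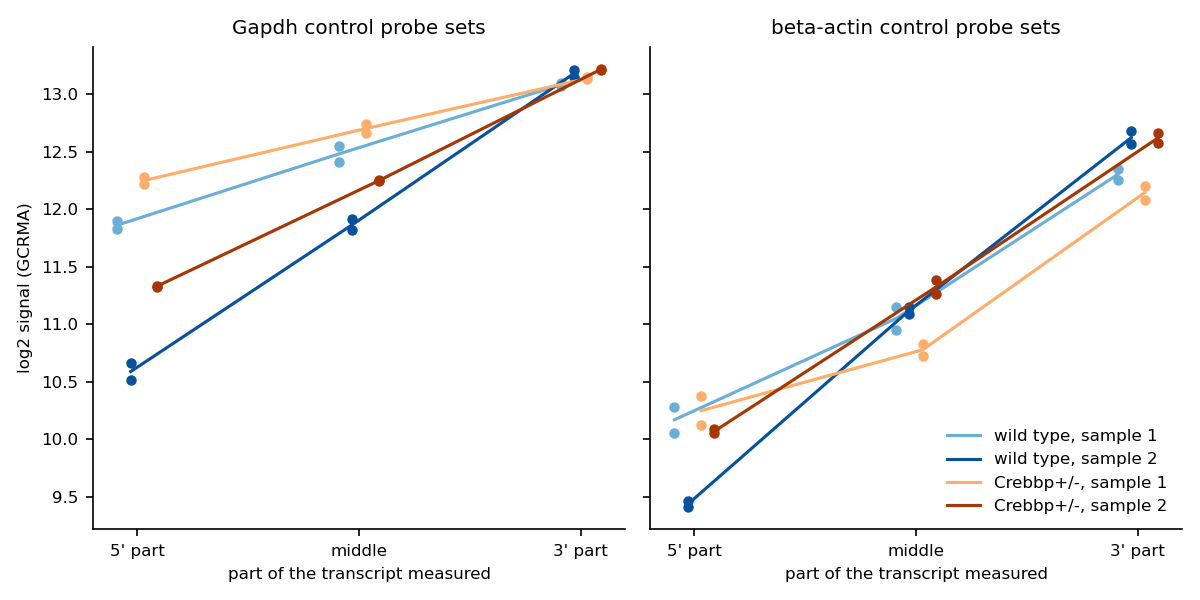
Log2 signal (vertical axis) of the Gapdh and beta-actin control probe sets for the 5' part, the middle and the 3' part of the transcript (horizontal axis). Points are single arrays and lines join the means of the 2 arrays of each sample; the Gapdh lines of sample 2 start at 10.59 and 11.33, below those of sample 1 at 11.86 and 12.25, and meet them at the 3' part.

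Across the array, sample 2 differed from sample 1 in both directions, with more probe sets lower than higher. Of 22518 probe sets tested, 2209 (9.81%) passed at an adjusted p of 0.05, with 709 (3.15%) higher and 1500 (6.66%) lower in sample 2. All 2209 had the same sign in both genotypes, and in 1848 of them the 4 arrays of one number lay wholly above the 4 of the other. The genotype term of the same fit called 0 probe sets, with 3673 (16.3%) at an unadjusted p under 0.05 against 6441 (28.6%) for the sample number. The dimmer sample number was at or below the filter level of 2.72 for 18 of the probe sets called higher and 37 of those called lower, which passed only through the other number. Differences of at least 1 were called for 163 probe sets in the higher direction and for 699 in the lower. Median centring of the arrays gave 3308 calls, of which 44.6% were higher, compared with 32.1% of the 2209.

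The call count rested on a spread with 1 residual degree of freedom, moderated by the pooled prior, and on single arrays. It was 0 without array 2 of wild-type sample 1 and 0 without array 1 of wild-type sample 2, with 5539 and 5556 probe sets at an unadjusted p under 0.05. It was 418 without array 2 of wild-type sample 2 and 532 without array 2 of Crebbp+/- sample 2. Leaving out array 1 of wild-type sample 1 gave 1225, of Crebbp+/- sample 1 gave 1152 and of Crebbp+/- sample 2 gave 1365. The count was also 0 without the genotype term, without the filter on dim probe sets, without the intensity trend of the variance and with values floored at 3. No gene named below was therefore called under all of these settings.

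The shift was wider in wild type than in Crebbp+/-. Its SD over tested probe sets was 0.64 in wild type and 0.53 in Crebbp+/-, and shifts of at least 1 numbered 728 higher and 1712 lower in wild type against 520 and 894 in Crebbp+/-. Of the tested probe sets, 71.6% shifted in the same direction in both genotypes. Both arrays of one number lay beyond both of the other within each genotype in the same direction for 31.2% and in opposite directions for 3.48%. Across probe sets, which are not replicates, the shifts of the 2 genotypes correlated with r = 0.55 (n = 22518) and with r = 0.74 in the brighter part of the array (the upper 25% by mean signal). They share no array, but were normalized together and share probe sequences. The 2 arrays of a sample correlated at 0.989 to 0.994. The SD of their difference over probe sets was 0.53 and 0.59 in wild-type samples 1 and 2, and 0.43 and 0.50 in those of Crebbp+/-. Repeat arrays thus also differed more in wild type, and their part in its wider shift was not tested.

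**Figure D2:**
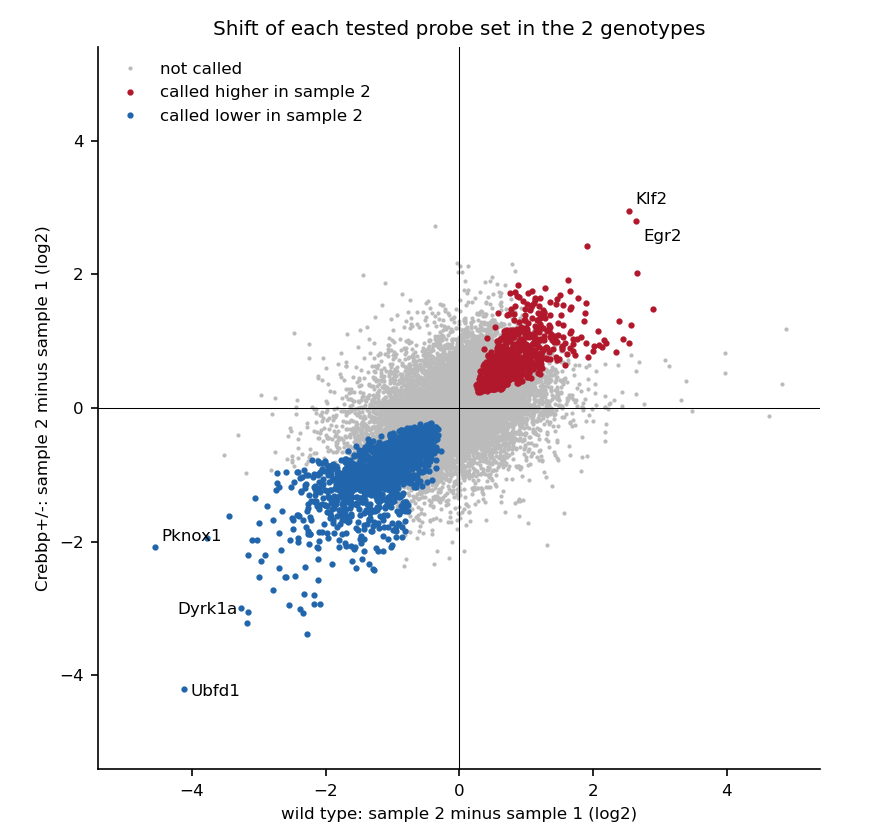
Shift from sample 1 to sample 2 (log2) in wild type (horizontal axis) and in Crebbp+/- (vertical axis) for each of the 22518 tested probe sets. Red points are the 709 probe sets called higher and blue points the 1500 called lower, and all lie in the 2 quadrants where both genotypes shifted the same way.

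Immediate early genes were higher in sample 2 in both genotypes. Of 26 measured genes of this list, 13 were called higher and 0 lower, while 3.85% of all 10600 genes, each represented by its brightest probe set, were called higher. The median difference of the list was 0.59, with 0.53 in wild type and 0.69 in Crebbp+/-, and the median over all genes was 0.03. In 12 of the 26 genes all 4 arrays of sample 2 lay above all 4 of sample 1, against 12.8% of all genes. The list stayed at a median of 0.57 to 0.65 when any 1 array was left out. Its calls then numbered 0 without array 2 of wild-type sample 1 or array 1 of wild-type sample 2, where no gene at all was called, 6 without array 2 of wild-type sample 2, 7 without array 2 of Crebbp+/- sample 2, and 11 to 13 otherwise. The Gapdh 5' minus 3' value moved with these genes in both genotypes, and its part in their difference was not tested. Of the macrophage markers, given below, 2 were also called higher, and their part was not tested either.

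Klf2 encodes a zinc finger factor of quiescence in lymphocytes and endothelium and had the largest difference among the genes named higher. Its signal was 4.98 and 4.37 for sample 1 of the wild type, 6.89 and 7.54 for its sample 2, 3.88 and 4.48 in Crebbp+/- sample 1, and 7.08 and 7.18 in Crebbp+/- sample 2. Every array of sample 2 lay above every array of sample 1, and the gap was wide. The difference was 2.74 (SE 0.27, 95% interval 2.09 to 3.40, limma adjusted p = 0.015), or 2.54 in wild type and 2.95 in Crebbp+/-.

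Egr2 encodes a growth factor-induced zinc finger factor. It read 2.53 and 4.31 for sample 1 of the wild type and 5.82 and 6.32 for its sample 2. In Crebbp+/- it read 3.37 and 3.49 in sample 1 and 6.07 and 6.38 in sample 2. The groups did not overlap although the 2 arrays of wild-type sample 1 differed widely, and the difference was 2.72 (SE 0.27, adjusted p = 0.015). Its second probe set gave 2.17 (adjusted p = 0.018).

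Atf3, a stress-induced partner of AP-1 and CREB-family proteins, was at background in sample 1, with 2.56, 2.69, 2.37 and 2.51. In sample 2 it read 3.80 and 4.77 in wild type and 4.39 and 3.98 in Crebbp+/-, a difference of at least 1.51 when sample 1 is set to the filter level of 2.72. Atf3 passed the filter on dim probe sets only through sample 2, so its call among the 13 follows in part from that filter. Zfp36 encodes tristetraprolin, which speeds the decay of mRNAs with AU-rich elements. Its signal went from 8.66 and 8.83 to 9.90 and 10.09 for wild type, and for Crebbp+/- from 8.12 and 8.15 to 9.55 and 9.66, a difference of 1.36.

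The Fos and Jun families form the dimeric factor AP-1. Fosb was higher by 1.18, Fos by 0.73, Jun by 0.54 and Jund by 0.40, whereas Junb, with shifts of 0.44 and 0.53, did not pass. Fosl2 ran the other way, with shifts of -1.52 and -0.57 and an adjusted p of 0.053. Fos went from 12.06 and 12.21 to 12.60 and 12.49 for wild type, and for Crebbp+/- from 11.59 and 11.46 to 12.57 and 12.59. Fos, Jun and Jund read above 11 on every array, sample 1 included.

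The other called members were Nr4a2, an orphan nuclear receptor (0.98), Ier5 (0.94), Egr1 (0.76), the MAP kinase phosphatase gene Dusp1 (0.76) and Klf6 (0.61). Btg2 and Maff shifted in opposite directions in the 2 genotypes and were not called. The heat shock list, which also responds to handling, had 1 of 12 genes called higher, Hspa1b at 0.37, and a median of 0.10. That is 8.3%, against 3.85% of all genes, and rests on a single call. The unfolded protein response list had 0 of 18 called in either direction, with a median of 0.09, although 3 of its genes had all arrays of sample 2 above those of sample 1. Counts of 0 for this and the lists below are limma calls from the same fit, in which 28.6% of probe sets had an unadjusted p under 0.05.

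**Figure D3:**
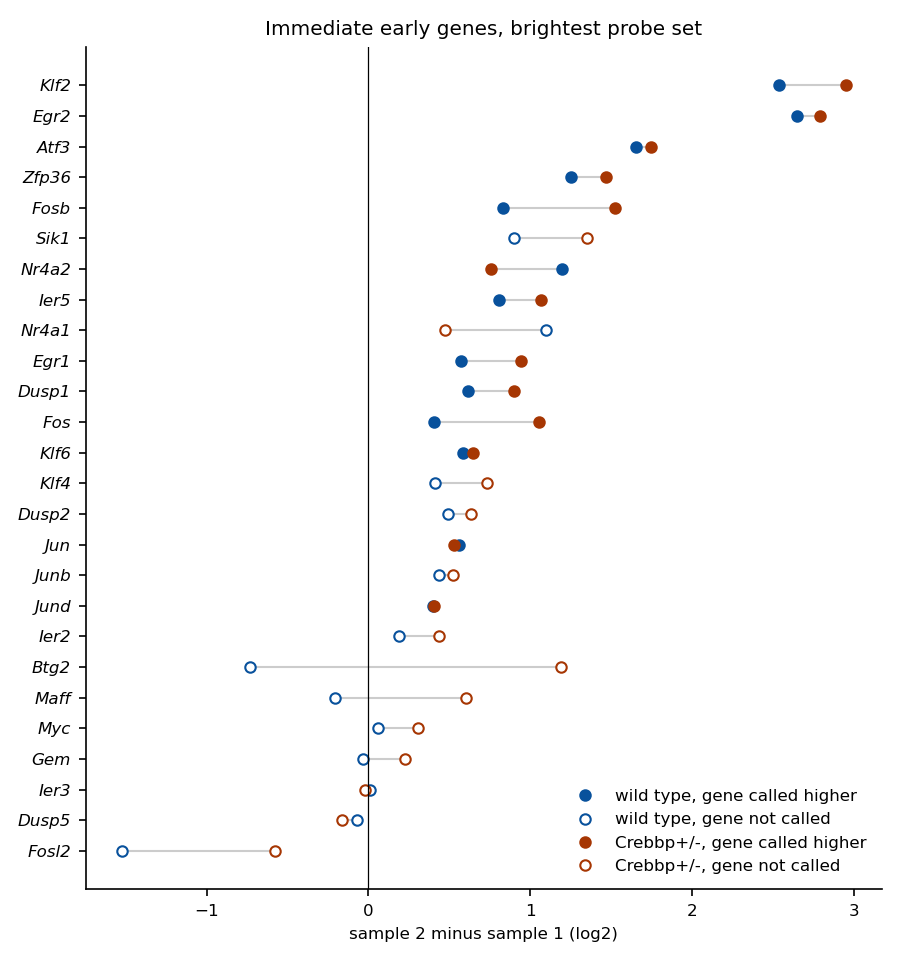
Shift from sample 1 to sample 2 (log2, horizontal axis) of the brightest probe set of each of 26 immediate early genes, in wild type (blue) and Crebbp+/- (brown). Filled points are the 13 genes called higher; 23 of the 26 genes had a positive mean difference, led by Klf2 at 2.74 and Egr2 at 2.72.

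In the 300 bases from 250 before to 50 after each start, the CRE half-site TGACG was present on either strand in 9 of 16 listed promoters of the called immediate early genes (56.2%). It was present in 17 of 27 promoters of the tested members (63%), in 31.8% of the promoters of all tested genes and in 20.8% of all 32851 promoters. The full CRE, TGACGTCA, which contains the half-site, was found in 1 of the 16 promoters, that of Dusp1, and in 3 of the 27, compared with 3.1% of the promoters of tested genes and 1.79% of all promoters. A CArG box lay in 5 of the 16 promoters, all of Egr2 or Zfp36, and in 6 of the 27. It lay in 1.29% of the promoters of tested genes and in 1.63% of all promoters. Counted by gene, 2 of 12 called and 3 of 21 tested members had a CArG box. The letters TATAAA, on either strand, lay in 2 of the 16, those of Fos and Nr4a2, and in 3 of the 27. They lay in 6.86% of the promoters of tested genes and in 13.6% of all promoters. The counts take 12 of the 13 called genes, those with a promoter in the RefSeq table, and a match in the letters is not a measured binding site.

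Outside the immediate early list, 9 genes were named higher. Tubb2a and Tubb2b, which encode beta-tubulins, were higher by 1.90 and 1.77. The brightest Tubb2a probe set, which is not the named one, differed by 0.87. It was not called (limma adjusted p = 0.055), although its groups did not overlap. The groups were separate for Tubb2b although the arrays of a sample could differ widely, with 4.49 and 3.04 for sample 1 of the wild type, 5.84 and 4.94 for its sample 2, 2.50 and 4.49 in Crebbp+/- sample 1, and 5.41 and 5.43 in Crebbp+/- sample 2. Cotl1, a coactosin-like actin-binding protein, was higher by 1.70, and Gsn, which encodes the actin-severing gelsolin, by 1.59. Sox11, a SoxC transcription factor of progenitor cells, was at background in sample 1 of both genotypes (2.25 to 2.41) and read between 3.15 and 5.34 in sample 2, a difference of at least 1.44 by the same count. Sox11 also passed the filter only through sample 2. The remaining 3 of the 12 genes named higher, besides Ttr below, were Hnrnpab (1.75), Gramd1b (1.65) and the splicing factor subunit Sf3a2 (1.59). For Hnrnpab, an RNA-binding protein gene, 5 of the 7 tested probe sets differed downward, the brightest by -0.15 and a called one by -0.57 (adjusted p = 0.020). Another, of like brightness to the brightest, was also called higher, by 0.37 (adjusted p = 0.034). The named probe set thus goes against most, but not all, of the gene's others. The brightest probe set of Gramd1b differed by 0.48 (adjusted p = 0.48), with shifts of -0.28 and 1.24.

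For 9 of the 12 genes named lower, the named probe set was not the brightest of its gene, and the brightest shifted less. The named probe set was picked as the called one with the largest difference. A smaller shift at the gene's other probe sets thus follows in part from that choice. Ubfd1, which encodes a ubiquitin-domain protein, had the lowest difference, -4.16 (SE 0.27, adjusted p = 0.015), with wild-type sample 2 below the filter level. Its probe set read 6.17 and 7.12 for sample 1 of the wild type and 2.42 and 2.62 for its sample 2. In Crebbp+/- it read 8.13 and 7.90 in sample 1 and 4.30 and 3.33 in sample 2. The groups were far apart, but the gene's brightest probe set differed by only -0.45 (adjusted p = 0.19) and 2 more by -0.28 and 0.14.

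Dyrk1a, a kinase gene, differed by -3.13 at one probe set, by -0.45 at its brightest, which was called (adjusted p = 0.031), and by 0.87 at the third (adjusted p = 0.072). Bcl2l1 encodes the survival protein Bcl-xL and differed by -2.83 and -1.69 at its dimmer probe sets and by 0.11 at its brightest. For Bcr, a GTPase regulator, the values were -2.86 at the named and -0.02 at the brightest probe set, and for the zinc transporter gene Slc39a10 they were -2.77 and -0.11. 

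Like Dyrk1a, Ide, Pik3r1 and Clk4 were called lower at their brightest probe set as well, by less than at the named one. Ide, the gene of insulin-degrading enzyme, gave -2.69 at the named probe set, -0.88 at the brightest (adjusted p = 0.020), -1.51 at another (adjusted p = 0.036), and -0.05 and 0.95 at 2 that were not called. At the named Ide probe set the arrays of wild-type sample 2 were far apart, at 7.58 and 4.51, against 8.41 and 8.44 in its sample 1. Pik3r1, which encodes the p85 regulatory subunit of phosphoinositide 3-kinase, gave -2.69 at the named and -0.89 at the brightest probe set, and the splicing kinase gene Clk4 gave -2.62 and -0.59. Uncalled Pik3r1 probe sets differed by 0.16, at one brighter than the named, and by -0.12. Pknox1 encodes a homeodomain partner of Pbx and Hox proteins. Its brightest probe set fell from 7.87 and 7.78 to 2.91 and 3.64 for wild type, and for Crebbp+/- from 8.28 and 8.28 to 6.24 and 6.15, a difference of -3.32 (SE 0.54, adjusted p = 0.023) made of shifts of -4.55 and -2.09. Rab11fip1 (-3.11) and Poglut3 (-2.75) have 1 tested probe set each, and Eloa, an elongin subunit, was lower by at least 2.59 at the named probe set, which was below the filter level in sample 2 of both genotypes. Its brighter probe sets differed by -0.92 (adjusted p = 0.073) and -0.07.

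Of the 12 genes named lower, 10 had several tested probe sets, and for 9 of them the named one was not the brightest. Of those 9 brightest probe sets, 4 were called. Of the 12 genes named higher, 8 had several, 5 were named by a dimmer probe set, and 1 of these 5 brightest was called. Over the array, among 1040 probe sets called lower in genes with several tested probe sets, 43.1% were the brightest of their gene, compared with 59.4% of 522 called higher and 36.8% of all probe sets of such genes. Calls in both directions thus fell on the brightest probe set more often than its share, though less so for the lower calls, and that difference was not tested. Of the 592 dimmer ones called lower, 91 had a brightest probe set also called lower, 475 one not called and 26 one called higher. Their median difference was -1.15 and that of the matching brightest probe sets -0.09. The dimmer ones were selected as called and the brightest were not, so this gap follows in part from the selection. In 38 genes, probe sets were called in both directions. Where on the transcript each probe set lies was not analysed here.

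**Figure D4:**
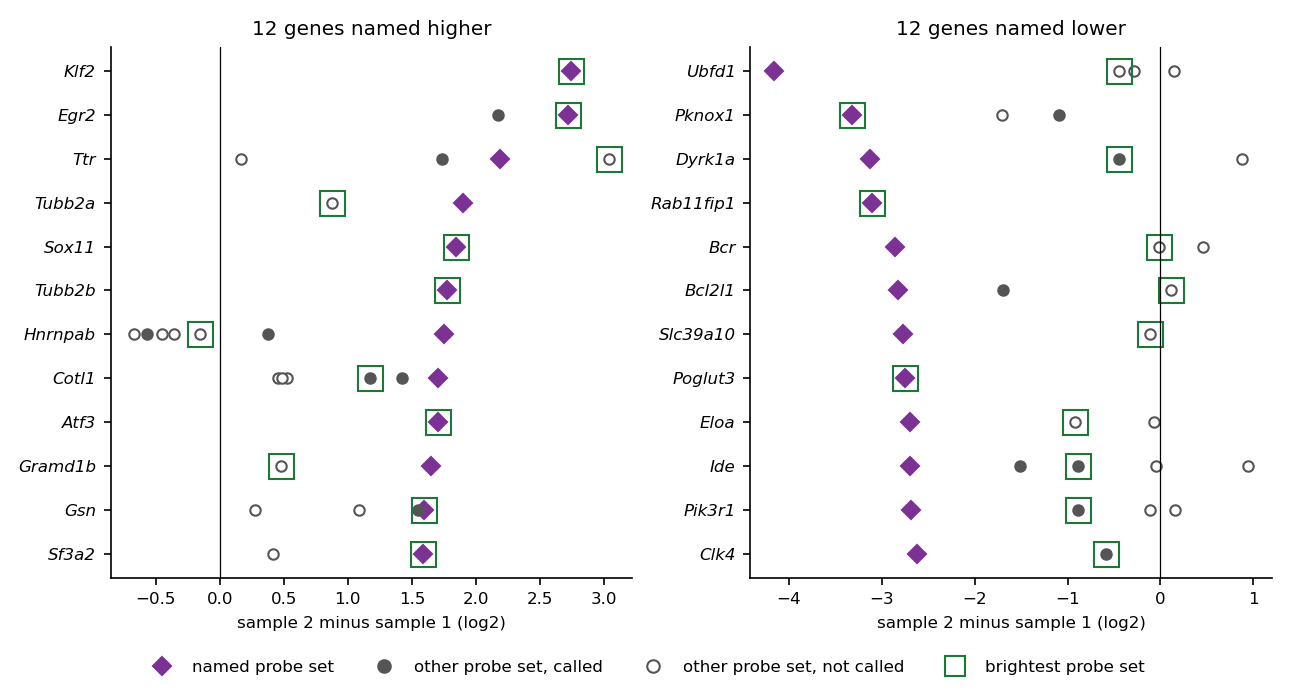
Difference between sample 2 and sample 1 (log2, horizontal axis) of every tested probe set of the 12 genes named higher (left) and the 12 named lower (right). Diamonds are the named probe sets, filled points other called ones, open points uncalled ones and green squares the brightest of each gene; for Ubfd1 the named probe set lies at -4.16 and the brightest at -0.45.

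Probe set classes also differed in balance. Affymetrix names with the suffix _x_at mark probe sets in which some probes match other transcripts, and 13.8% of these 1497 were called higher and 1.07% lower, with a median difference of 0.25. Of 16560 plain _at probe sets, 1.43% were called higher and 6.83% lower, with a median of -0.03. Called _x_at probe sets include those named for Ttr, Cotl1 and Gsn above, whose signal could partly come from related transcripts. Genes called lower spanned a median of 31.4 kb of the genome, genes called higher 17.0 kb and all tested genes 23.6 kb, from the RefSeq gene table.

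The brightest probe sets of the genes that define the sorted cells were not called, while a dimmer one of Kit and a dimmer one of Cd93 were called lower. Kit, the stem cell factor receptor used in the sort, read between 9.02 and 9.67 on all 8 arrays, with overlapping groups and a difference of -0.16 (95% interval -0.50 to 0.18, adjusted p = 0.50). A dimmer Kit probe set differed by -1.58 (adjusted p = 0.026), from 5.68 and 5.59 to 4.36 and 4.05 for wild type, and for Crebbp+/- from 6.17 and 6.24 to 4.87 and 4.05. Cd93, the AA4.1 antigen, differed by -0.18 at its brightest probe set (95% interval -0.38 to 0.02, adjusted p = 0.21) and by -0.82 at a dimmer one (adjusted p = 0.028). At the brightest, every array of sample 2 lay below every array of sample 1. The remaining tested Cd93 probe set, dim at a mean of 3.76, differed by 0.24 (adjusted p = 0.58). Cd34 differed by 0.20 (adjusted p = 0.17). The Sca-1 gene Ly6a has no probe set with a single listed symbol and was not analysed here.

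Among 31 stem cell genes, 2 were called lower, 1 higher and 28 neither, with a median of -0.06, while 6.84% of all genes were called lower. The lower ones were Gata2 (-0.97), a factor needed by stem cells, and Etv6 (-0.98), an ETS repressor that maintains them, and the higher one was Egr1. Gata2 went from 11.39 and 11.19 to 10.06 and 10.18 for wild type, and for Crebbp+/- from 11.28 and 11.30 to 10.57 and 10.49. Both groups were far apart for Gata2. In the Hox list, 1 of 16 genes was called, Pknox1, and in the list of the fetal stem cell programme 1 of 11, Hmga2 (-0.41), which encodes a chromatin protein of fetal stem cells. Both shares are near the 6.84% of all genes.

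Crebbp itself was lower in sample 2 at its 2 brighter probe sets. The brightest read 11.97 and 12.17 for sample 1 of the wild type, 11.41 and 11.42 for its sample 2, 11.96 and 11.95 in Crebbp+/- sample 1, and 11.56 and 11.76 in Crebbp+/- sample 2. Sample 2 lay below sample 1 on every array, and the difference was -0.47 (SE 0.11, adjusted p = 0.044). The next brightest differed by -0.97 (adjusted p = 0.022) and the remaining ones by 0.14 and 0.11. Its paralog Ep300 differed by 0.04 (adjusted p = 0.86). The sample 2 minus sample 1 difference of Crebbp is thus present in wild type as well, where the shifts of the 2 brighter probe sets were -0.65 and -1.14.

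No hepatocyte gene was called by its brightest probe set, although 8 of the 9 measured ones shifted upward by more than 1 in wild type. The difference between the genotypes was not tested. In bulk RNA, more cells of a type and more RNA per cell cannot be told apart. Of the 21 listed genes on the array, 12 were at or below the filter. All 9 differences were positive, with a median of 1.72 that joins a wild-type median of 3.32 and a Crebbp+/- median of 0.12. Fga and Rbp4 were above the filter level in wild-type sample 2 only, so they passed through the sample where they are high. The count and medians follow in part from that filter. Without it, the median difference over all 21 genes was 0.11. Afp, the fetal albumin-like protein, read 3.60 and 3.76 for sample 1 of the wild type, 8.49 and 8.51 for its sample 2, 6.37 and 7.06 in Crebbp+/- sample 1, and 7.11 and 7.05 in Crebbp+/- sample 2. Wild-type sample 1 stood apart below the other 3 samples. Alb and the transthyretin gene Ttr lay below the filter level in wild-type sample 1, with 2.43 and 2.32. Their wild-type shifts are therefore bounds, at least 4.34 for Alb and at least 4.48 for Ttr, beside shifts of -0.12 and 1.18 in Crebbp+/-. Apoa1 shifted by 3.97 and 0.82. Dimmer Ttr probe sets were called, and the one named higher differed by at least 2.00, since wild-type sample 1 was below the filter level there too. Hnf4a, the hepatocyte factor, was the brightest member and shifted by 0.16 and -0.15.

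Macrophage, lymphoid and erythroid genes gave a mixed picture. Of 5 measured macrophage genes, 2 were called higher and 0 lower, against 3.85% and 6.84% of all genes. Csf1r, the receptor for macrophage colony-stimulating factor, which progenitors also express, had a mean of 9.81 in sample 1 and 10.76 in sample 2 of wild type, and of 9.31 and 10.90 in Crebbp+/-, a difference of 1.27 (adjusted p = 0.018). The groups did not overlap, since the highest array of sample 1 read 10.13 and the lowest of sample 2 read 10.67. C1qb was called at 1.06, but it was high on array 2 of each sample 2 alone (4.45 and 5.26), and all other arrays read 2.53 to 2.84, so the groups overlapped. C1qb thus passed the filter on dim probe sets through sample 2, and Mrc1 through Crebbp+/- sample 2 alone. The count of this list follows in part from that filter. Its median difference was 0.51 over the 5 measured genes and 0.01 over all 14 without the filter. The other 9 macrophage genes, with the defining markers Adgre1, C1qa and Cd5l, were at or below the filter of 2.72. Summed over the list, the log2 signal was 10.2 and 9.74 in sample 1 and 11.0 and 11.1 in sample 2 of wild type and Crebbp+/-, sums over probe sets of unlike brightness that are mostly Csf1r.

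Of 12 lymphoid genes, Ebf1, the B lineage factor (1.59), and Il7r, the interleukin-7 receptor (1.08), were called higher, and Notch1 was called lower (-1.29). In 0 of the 12 did all 4 arrays of sample 2 lie above all 4 of sample 1, Ebf1 and Il7r included. The shares of all genes, 3.85% higher and 6.84% lower, apply to each list of this paragraph, and in lists this short a single call makes a large share. Il7r read 6.79, 6.32, 7.01 and 7.56 in sample 1 and 8.06, 7.28, 8.11 and 8.55 in sample 2, so the groups overlapped slightly across genotypes but not within them. Notch1 went from 11.00 and 10.64 to 9.34 and 9.29 for wild type, and for Crebbp+/- from 11.17 and 11.10 to 10.12 and 9.99. Of 7 measured erythroid genes, Hba-a2, an alpha-globin gene (-0.85), and Car2, carbonic anhydrase (-0.49), were called lower, and the list's median was -0.11. Of the 7 differences, 3 were positive, and 10 of the 17 erythroid genes on the array were at or below the filter. The myeloid granule list had 1 of 8 higher (Lyz1, 0.52), the mesenchymal list 1 of 2 (Pdgfrb, 1.21), and the endothelial list 1 of 10 lower (Emcn, -1.16). On the array, 10 of 12 mesenchymal, 5 of 15 endothelial and 4 of 12 myeloid granule genes were at or below the filter. None of 8 megakaryocyte, 2 mast cell, 8 haem synthesis and 1 lineage antigen genes (Cd4) was called.

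None of the sex-linked genes was called. Xist differed by 0.02, Eif2s3y by 0.21, Kdm5d by 0.38 and Uty by 0.95, and the 4 genes had a median of 0.29. Xist is transcribed from the inactive X chromosome of females and the others lie on the Y chromosome.

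**Figure D5:**
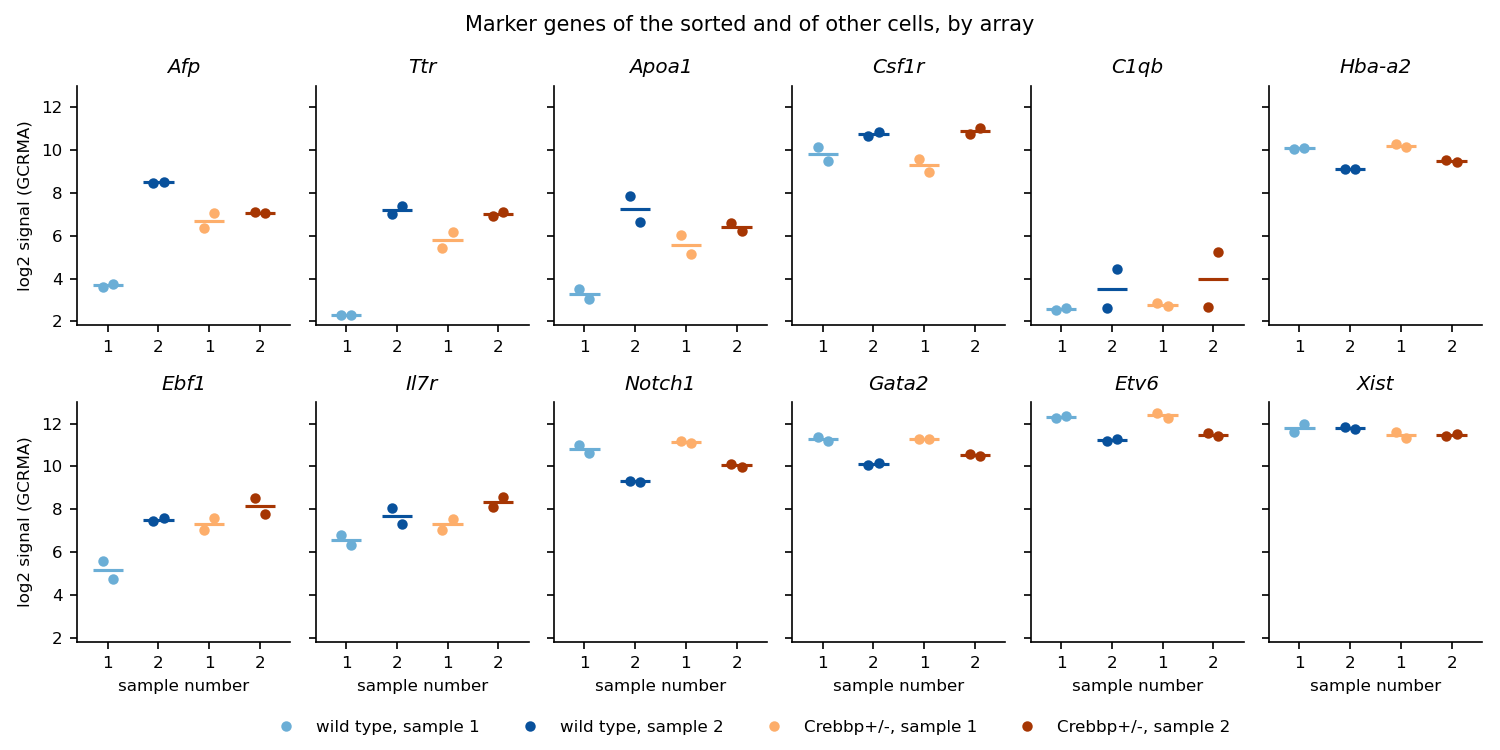
Log2 signal (vertical axis) of 12 marker genes on each array, by genotype (blue, wild type; brown, Crebbp+/-) and sample number (horizontal axis), with bars at the mean of the 2 arrays. Wild-type sample 1 lies lowest for Afp, Ttr and Apoa1, whereas Notch1, Gata2 and Etv6 are lower and Csf1r higher in sample 2 of both genotypes.

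In the DNA replication list 3 of 25 genes were called higher and 0 lower, against 3.85% of all genes called higher, with a median of 0.14. All 4 arrays of sample 2 lay above those of sample 1 for 11 of the 25, against 12.8% of all genes. Median centring called 9 of the 25 higher, where it called 8.08% of all genes higher. Mcm5 (0.81) and Mcm2 (0.55), subunits of the replicative helicase, and its loader Cdt1 (0.74) were the 3 called. Mcm5 went from 10.49 and 10.40 to 11.51 and 11.11 for wild type, and for Crebbp+/- from 10.10 and 10.54 to 10.97 and 11.18. The mitotic list had 0 of 22 higher and 1 lower, Prc1 (-0.52), a midzone microtubule bundler. Its share called lower, 4.5%, is below the 6.84% of all genes. Of 8 measured replication-dependent histone genes, H1f2 was higher (1.10) and H2aw lower (-0.81). Each is 12.5% of a list so short that a single call makes a large share, against 3.85% and 6.84% of all genes.

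Of 34 splicing factor genes, 6 were called lower and 0 higher, against 6.84% and 3.85% of all genes, and the list's median was 0.08. All arrays were separated downward for 9 and upward for 7 of them, and median centring called 6 lower and 3 higher. The balance of the calls thus depended on the setting, with more lower than higher calls in every setting that gave any. The 6 were U2af1 (-0.75), a recogniser of the 3' splice site, Srsf5 (-0.73), the kinases Clk1 (-0.71) and Clk4 (-0.59), Son (-0.51) and Rbm25 (-0.49). Among 19 p53 targets, Zmat3 (-1.62), Mdm2 (-0.97), the ligase that degrades p53, and Aen (-0.59), an apoptosis nuclease, were lower and 0 were higher, against 6.84% and 3.85% of all genes, with a median of -0.11. Mdm2 read 10.54 and 10.60 against 9.32 and 9.74 in wild type and 10.73 and 10.57 against 9.74 and 9.76 in Crebbp+/-, with no overlap.

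Of 52 oxidative phosphorylation genes, 5 were higher and 5 lower, against 3.85% and 6.84% of all genes, and median centring called 11 higher and 5 lower. They included Ndufs8 (0.67) and Ndufa9 (-0.56) of the same complex I. Rps10 (-0.36) and Rps9 (-0.35) were the 2 of 42 ribosomal protein genes called, and 0 were higher. In sterol synthesis, Idi1 was higher (0.78) and Fdps (-1.12) and the regulator Srebf2 (-0.52) were lower, of 18. The glycolysis and hypoxia list had 1 of 19 called, Pdk1 (-0.81), the interferon list 1 of 22, Ifit1 (-1.64), and the long noncoding list 1 of 15, Snhg1 (0.42). In 0 of the 22 interferon genes did all arrays of sample 2 lie below all of sample 1, Ifit1 included. The Gapdh and actin 5' values moved alongside all of the lower calls, and their part in them was not tested.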

How the data were processed

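The deposited log2 values were made by the authors with GCRMA, per the submitters' processing notes, and its version is not given in the sources used here. Sample numbers and genotypes came from the array titles. The 2 arrays of a sample were averaged. The 22518 probe sets with a mean above the median of 2.72, of 45037 that are not controls, entered a limma fit (version 3.58.1, R 4.3.3; sample number and genotype as terms, eBayes with an intensity trend) on 4 sample means, with 1 residual degree of freedom. Benjamini-Hochberg adjustment ran over all of them, and an adjusted p under 0.05 was a call. The code of the fit was checked on simulated data, which says nothing about the calls in these data. The array medians were 2.65 to 2.70, and the number of arrays limits the precision.

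Gene symbols came from the platform annotation, of which 34945 probe sets had 1, 932 several and 9160 none listed, and 34741 gene identifiers matched the RefSeq table. A gene in a list is its brightest tested probe set, and 573 of 695 entries of 30 lists matched. For each direction, the 12 genes with the largest called difference and no overlap between the arrays of the 2 numbers were named, then the 8 genes with the largest opposed shifts, up to 4 called members of each list and a few set genes. Further called or uncalled list members, and the promoters, were picked after their values were seen. The members and lists were chosen with earlier results of these data known. Array numbers were checked as a pairing: deviations of same-numbered arrays correlated between -0.02 and 0.05 over 6 pairs of samples, so array number pairs nothing. Alternatives covered filter, scaling, floor, variance model, unit of replication, thresholds and the omission of each array. Where a sample mean lay at or below 2.72, a bound was computed with that mean set to 2.72, a step added after seeing the data.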

Additional observations from a re-analysis of the deposited data

Results flagged for a closer look

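For 8 probe sets the shift ran in opposite directions in the 2 genotypes, with both arrays of one sample number above both of the other in each genotype. The difference between the genotypes was not tested. Such opposed separation was seen in 783 of 22518 probe sets (3.48%), against 7032 (31.2%) separated in the same direction.

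In Crebbp+/- minus wild type, the shift differed by 3.59 for Stxbp4, which encodes a syntaxin-binding protein. Its signal went from 4.65 and 5.49 to 2.62 and 2.57 in wild type and from 2.29 and 2.58 to 4.51 and 2.60 in Crebbp+/-, where array 2 of sample 2 and both arrays of sample 1 lay below the filter level of 2.72, at which values carry no order. The opposed shift of Stxbp4 in Crebbp+/- therefore rests on 1 array, and its size is computed in part from background values. It was 3.43 for 1700029I15Rik, with shifts of -1.44 in wild type and 1.99 in Crebbp+/-. For Pxmp4, a peroxisomal membrane protein gene, it was 3.21, from -2.25 and 0.96. For Map1lc3b, which encodes the autophagosome protein LC3B, it was 2.79, from -1.68 and 1.11, and for Fam126b 2.62, from -1.26 and 1.36.

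The opposite order was seen for Clip1, a microtubule plus-end protein gene, at -3.35, where wild type went from 4.63 and 4.39 to 6.01 and 5.63 and Crebbp+/- from 6.51 and 6.44 to 4.80 and 4.07. Map3k2, a MAP kinase kinase kinase gene, gave -2.56 and Plxdc2 -2.53, with Crebbp+/- sample 2 of Plxdc2 below the filter level. Of the 8 genes, 7 had several tested probe sets, and for 6 the opposed one was not the brightest.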

How the results depend on the processing

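The count of 2209 called probe sets depended on the fit. It was 0 without the genotype term (4222 at an unadjusted p under 0.05), 0 without the filter (5210), 0 without the intensity trend (5313) and 0 with values floored at 3, an alternative added after seeing the data (5653). It was 3646 in the upper 25% of probe sets, 4307 at an adjusted p of 0.10 and 862 with a difference of at least 1. Treating the 8 arrays as independent gave 4587, estimating the correlation of repeat arrays gave 6504, and adding array number as a replicate block gave 4324. The estimated correlation was negative, at -0.22, so the 6504 calls do not come from a fit that discounts repeat arrays for being alike. Leaving out single arrays gave 0 to 2425. The planned floor at log2 of 3 lay below all values. Quantile normalization gave 2379 calls, 41.4% of them higher, and a robust prior 2084. The Gapdh 5' minus 3' change ranged from -1.21 to -1.16 and the actin change from -0.89 to -0.82 when single arrays were left out, and the Gapdh change was -0.56 against the middle probe set. The causes were not tested.

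Single genes reversed in 11 cases, all for uncalled genes near 0. Without single arrays, Hnf4a ranged from -0.065 to 0.079, with -0.059 and -0.020 between, Egfl7 from -0.0079 to 0.16, Ptn from -0.13 to 0.28, with -0.11 between, and Xist from -0.073 to 0.11, with -0.0069, -0.051 and -0.012 between. Hsph1 was 0.031 under median centring. Signals near background, with both numbers at or below 2.72, carry no order.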
